A study of Mus musculus with 6 samples.

Results

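Nonclassical monocytes were sought among CD45+ cells sorted from the synovium of mice with antigen-induced arthritis. A cell was selected if its deposited unique molecular identifier (UMI) counts held at least 3 of the genes Ace, Cd300e, Adgre4, Ear2 and Treml4 and no Lyve1. The rule was met by 410 of 32953 cells, and since these counts chose the cells, the levels of the 5 genes and the absence of Lyve1 are descriptions and not findings. The C57BL/6 mice had been immunized with 10 µg methylated bovine serum albumin (mBSA) in Freund's complete adjuvant and challenged with 100 µg mBSA in the knee on day 21. From then they received intraperitoneal PBS (2 samples) or 300 µg PEPITEM (4 samples), a peptide that limits leukocyte trafficking, and joints were taken on day 3 after the challenge. All samples shared the strain, the immunization and the challenge, so that no sample came from a joint without arthritis, and the methods describe the mice as males bought at 8 weeks of age.

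The deposited table pools the 6 samples, and the numbers 1 to 6 at the end of its barcodes mark libraries that no source used here links to PBS or PEPITEM. For this reason the treatments were not compared, no statistical test was run, and each value is pooled over cells, with a counting interval, or is given for single libraries, mostly as the lowest, median and highest of the 6. Intervals are 95% intervals and cover counting error only. The libraries held 2919 to 9345 cells and 47273569 to 123367661 UMIs.

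Nonclassical monocytes are the Ly6C-low monocytes of the mouse, which crawl along the inner wall of small vessels and take up particles and dying cells from it. They arise from Ly6C-high classical monocytes, and the nuclear receptor Nr4a1 is needed for their development. Classical monocytes follow Ccr2 ligands out of the marrow into inflamed tissue, where they can become macrophages, and both kinds of monocyte have been studied as sources of macrophages in arthritis.

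Of the genes in the rule, Ace (ENSMUSG00000020681, chr11:105967945-105989964 of GRCm38, which is mm10) encodes the peptidase that makes angiotensin II. Cd300e (chr11:115051917-115062177) and Treml4 (chr17:48264295-48275360) encode immunoglobulin-like receptors of myeloid cells. Adgre4 (chr17:55749984-55853662) encodes an adhesion G protein-coupled receptor related to F4/80, and Ear2 (chr14:44102654-44103534) a ribonuclease. Ear2 belongs to a family of near-identical genes whose reads counting may split, and in the selected cells Ear1 and Ear6 were at 1 UMI each against 1306 for Ear2. Pparg (chr6:115360951-115490399), the nuclear receptor for fatty acids that was listed as a marker but not used by the rule, stood at 269 CPM (counts per 1000000, the summed UMIs of a gene per 1000000 UMIs of the cells).

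To show what lies before the genes that the rule reads together, the RefSeq windows of 250 bases before the start (GRCm38.p6) were searched on both strands for TTGCNNAA (C/EBP), GAGGAAGT (PU.1) and AAAGGTCA (NBRE, the element bound by Nr4a1), and no match of a motif overlapped a match of another. All 6 genes had a window, 9 in total, because Ace has 2 starts and Pparg 3. Shown are the windows of Adgre4 (plus strand, chr17:55749734-55749983) and Ear2 (plus strand, chr14:44102404-44102653), which hold the C/EBP letters in capitals, and that of the upstream start of Ace (plus strand, chr11:105967698-105967947), which holds none of the motifs.
Adgre4: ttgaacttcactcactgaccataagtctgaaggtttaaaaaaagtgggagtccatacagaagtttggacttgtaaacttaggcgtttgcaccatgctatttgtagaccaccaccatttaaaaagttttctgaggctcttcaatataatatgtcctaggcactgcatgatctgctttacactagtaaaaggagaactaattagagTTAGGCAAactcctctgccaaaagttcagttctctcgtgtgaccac
Ear2: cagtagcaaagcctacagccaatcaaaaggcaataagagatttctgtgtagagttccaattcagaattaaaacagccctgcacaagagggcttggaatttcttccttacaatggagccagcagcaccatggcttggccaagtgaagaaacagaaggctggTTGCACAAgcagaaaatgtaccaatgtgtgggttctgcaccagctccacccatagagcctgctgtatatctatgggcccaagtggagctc
Ace: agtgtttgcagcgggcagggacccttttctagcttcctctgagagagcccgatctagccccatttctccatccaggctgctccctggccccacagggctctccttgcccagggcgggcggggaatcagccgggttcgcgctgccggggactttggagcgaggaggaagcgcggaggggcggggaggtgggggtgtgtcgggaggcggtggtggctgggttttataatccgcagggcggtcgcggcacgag
The C/EBP letters are held by 9.56% of 32851 such windows, those of PU.1 by 2.44% and those of NBRE by 1.34%. The most downstream of the Pparg windows also held the C/EBP letters, and the PU.1 and NBRE letters were in none of the 9.

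The selected cells made up 1.24% of all cells (Wilson interval 1.13% to 1.37%). Libraries 1 to 6 held 37, 77, 36, 61, 108 and 91 of them, which was 1.11%, 1.33%, 1.23%, 1.53%, 1.16% and 1.21% of their cells. The library intervals overlapped one another, although the share of neutrophils by the gate described below ranged from 4.52% to 27.8% of a library. For each 100 cells of the classical monocyte gate there were 6.47 to 10.2 selected cells, with a median of 7.27. In the CD45 gate, such ratios count sorted and sequenced cells, so they do not say how many of these cells a joint held.

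**Figure D1:**
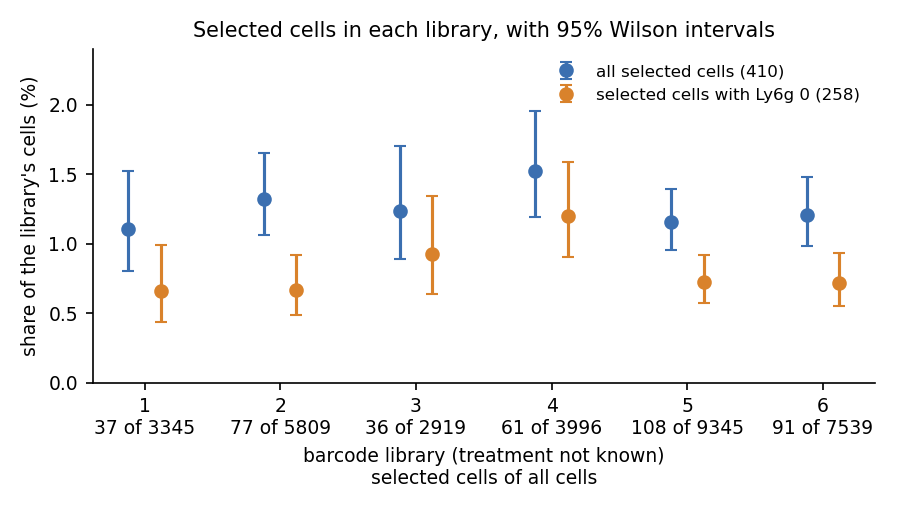
Share of each library's cells that met the rule (y axis, percent) by barcode library (x axis), for all 410 selected cells (blue) and for the 258 with Ly6g at 0 (orange), where bars are 95% Wilson intervals. All selected cells made up 1.11% to 1.53% of a library and those without Ly6g 0.658% to 1.20%.

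Among the selected cells, 99 had all 5 genes, 141 had exactly 4 and 170 exactly 3. The most frequent set was that of all 5 genes, followed by the 4 without Cd300e (77 cells) and by Adgre4, Ear2 and Treml4 (66 cells). Adgre4 was found in 94.9% of the selected cells, Ear2 in 83.4%, Treml4 in 81.7%, Ace in 74.1% and Cd300e in 48.5%. Just outside the rule were 922 cells with exactly 2 of the genes and no Lyve1, and 18 cells with 3 or more of the genes had Lyve1. Pparg stood at 138 CPM in the cells with exactly 3 genes and at 37.2 CPM in those with exactly 2, while Ly6c2, which encodes the Ly6C antigen of classical monocytes, stood at 680 and 972 CPM. These groups also differed in the neutrophil gene Ly6g, which was found in 38.8% of the former and 52.4% of the latter.

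Depth entered the rule. The selected cells had a median of 16811.5 UMIs, against 19676 in the classical monocyte gate. Over the libraries the median was 13084 to 24418 UMIs in the selected cells and 9923 to 14001 in all cells, and in each library the selected cells were deeper. When every cell with at least 5000 UMIs was thinned to that number, 162 of 26713 cells met the rule, or 0.606%, and 6240 shallower cells were left out.

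Much of the RNA in some selected cells was of neutrophil genes. Ly6g, the defining surface marker of neutrophils, was found in 152 of the 410 cells (37.1%, interval 32.5% to 41.8%), from 21.3% to 49.4% in a library with a median of 38.8%. Ly6g was also found in 17.7% of the cells of the classical monocyte gate, 17.2% of the Lyve1 macrophage gate and 0.585% of the B cell gate. S100a8, which encodes a calcium-binding protein that fills the neutrophil cytosol, was at 0 in 199 selected cells and at 50 UMIs or more in 193, so that few cells lay between. S100a8 and S100a9 together took 9.90% of the UMIs of the selected cells, 1.45% in those without Ly6g, 16.2% in those with it, 3.03% in the classical monocyte gate and 29.9% in the neutrophil gate. The selected cells with Ly6g had a median of 28548.5 UMIs and those without it 11705. The whole list of 8 neutrophil genes summed to 125082 CPM in the selected cells (40306 to 169279 by library) and to 17507 CPM in those without Ly6g (4910 to 38869), with S100a9 its most abundant gene at 52024 and 7479 CPM. Doublets had been removed by the authors with a caller, and free RNA with SoupX. The part of remaining doublets or free RNA in these values, or of the removal itself, was not tested. Main results are therefore given for all selected cells and for the 258 with Ly6g at 0, and in the latter case the cells of the classical monocyte gate, with which levels are compared, had Ly6g at 0 too. By the calls defined below, 5 of 5 neutrophil genes tested were higher in all selected cells (median log2 fold 1.81). Without Ly6g 0 of 5 were called, but the median log2 fold was still 1.47. S100a8 was found in 24.0% of the selected cells without Ly6g and in 14.8% of such gate cells.

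**Figure D2:**
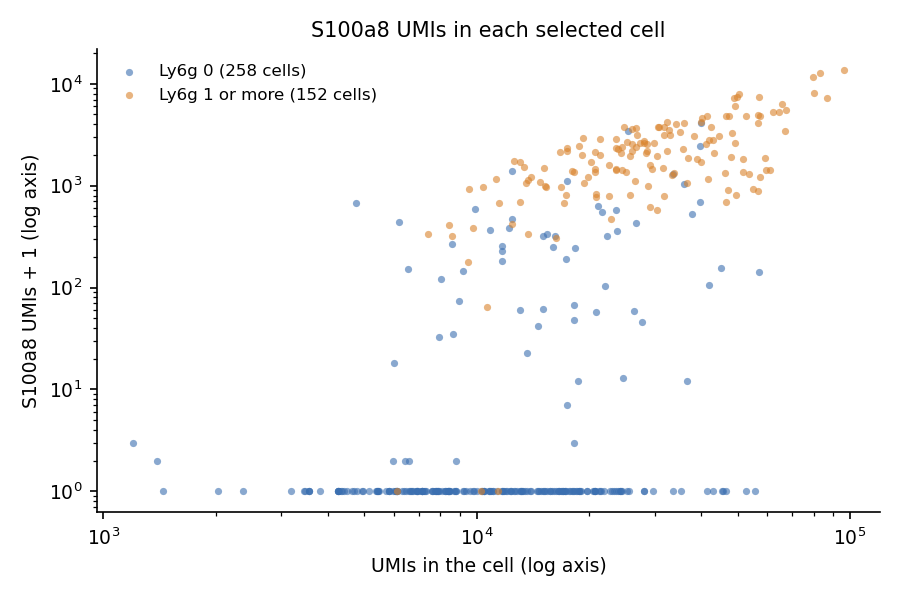
S100a8 UMIs plus 1 (y axis, log scale) against the UMIs of the cell (x axis, log scale), with 1 point for each of the 410 selected cells, in blue for Ly6g at 0 and in orange for Ly6g at 1 or more. The 199 cells with no S100a8 lie on the bottom line, and 193 cells have 50 UMIs or more.

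Levels were compared with 5 populations gated on a few genes, none of which let in a cell with more than 1 gene of the rule. These were a classical monocyte gate (Ly6c2, Ccr2 and Csf1r, without Lyve1 and Siglech, 5201 cells), a Lyve1 macrophage gate (1216), a Cd209a dendritic cell gate (362), a neutrophil gate (Ly6g, S100a8 and Retnlg without Csf1r, 6421) and a B cell gate (2564). A gene was called higher or lower in the selected cells if it stood at 20 CPM or more in either population, differed at least 2-fold and differed in the same direction in 6 of 6 libraries. Against the classical monocyte gate, 201 of 6259 genes were called higher (3.21%) and 378 lower (6.04%). With Ly6g at 0 on both sides, 255 of 6468 were called higher (3.94%) and 306 lower (4.73%). Counts of called genes in the lists below are to be read beside these shares over all genes. Of the calls, 121 genes were higher in both comparisons, which was 60.2% of the former calls and 47.5% of the latter, and 248 were lower in both, 65.6% and 81.0%.

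The selected cells stood high in genes that mark nonclassical monocytes elsewhere. Of 18 such genes outside the rule, 11 were called higher and 0 lower, with a median log2 fold of 1.46 against -0.16 over all genes tested. Without Ly6g, 15 of the 18 were called higher, with a median of 1.82 against -0.04. The exceptions were Cebpb (1.41-fold), which encodes a factor needed for Ly6C-low monocytes, Klf2 (1.39-fold) and Itgax (5.51-fold, but higher in 5 of 6 libraries). The list was chosen with earlier results of these data known, so its counts describe the cells and do not test their label.

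Pparg stood at 107 CPM in the lowest library, 227 in the median and 540 in the highest, against 15.9, 23.8 and 46.8 in the classical monocyte gate. The groups of libraries did not overlap, and the pooled level was 11.4-fold higher (interval 10.8 to 12), or 17.1-fold without Ly6g. Pparg was found in 70.5% of the selected cells without Ly6g and in 18.4% of the gate cells without Ly6g, and in 54.5% and 8.53% once cells were thinned to 5000 UMIs. In the B cell gate, which should lack the gene, it was found in 0.195% of the cells (median depth 5747 UMIs, against 11705 in the selected cells without Ly6g). Library 6 was highest and library 3 lowest for Pparg, also without Ly6g (950 and 159 CPM).

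Nr4a1 stood at 446, 490 and 596 CPM in the lowest, median and highest library of the selected cells, and at 238, 269 and 394 in the gate. The libraries again did not overlap, but the fold was 1.80 (interval 1.74 to 1.86), below the limit for a call, and 2.20 without Ly6g (2.10 to 2.29). Nr4a2, its close relative, was at 0.815 and 1.07 times the gate. Pou2f2 (2.90-fold, 3.93-fold without Ly6g) and Tcf7l2 (3.41-fold and 5.23-fold) were called higher in both comparisons, and with Pparg these were 3 of 16 listed transcription factors, or 5 of 17 without Ly6g, where Nr4a1 and Nr1h3 joined them. Tcf7l2 acts downstream of Wnt signals, and Nr1h3 encodes the oxysterol receptor LXR alpha. When cycling and precursor cells were left out on both sides, as described below, Tcf7l2 was not called (2.31-fold, higher in 5 of 6 libraries).

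A few adhesion and trafficking genes were higher. Itgal, the alpha chain of the integrin LFA-1 with which these monocytes hold to endothelium, stood at 196, 322 and 395 CPM against 82.4, 89.4 and 95.4 in the gate, 3.47-fold higher (4.79-fold without Ly6g). Cx3cr1, the fractalkine receptor, stood at 131, 167 and 223 CPM against 59.2, 73.8 and 92.9, 2.33-fold higher (3.18-fold). Pecam1, a junction protein of endothelium that leukocytes also carry, was 4.10-fold higher (6.01-fold), while the 4 endothelial markers summed to 103 CPM, of which Pecam1 made 102 and Emcn 0. In all, 3 of 17 listed genes were called higher, and 6 of 18 without Ly6g, where Spn (CD43, 2.37-fold), Itga4 (2.47-fold) and S1pr5 were added. S1pr5 stood below 20 CPM in all selected cells and was not tested there, although its fold was 51.2 and it was higher in 6 of 6 libraries. Its added call therefore comes from the limit of 20 CPM.

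S1pr5 encodes a receptor for sphingosine-1-phosphate that takes part in the exit of nonclassical monocytes from the marrow. In the selected cells without Ly6g it stood at 7.94, 34.6 and 39.6 CPM over the libraries and at 27.7 CPM pooled, 61.5-fold above the gate (interval 42.3 to 91.0). NK cells use this receptor too. In the same selected cells the NK cell markers Ncr1 and Gzma were at 0, and the 4 markers summed to 1.08 CPM (0 to 5.72 by library), with Eomes the most abundant at 0.808 CPM. This sum rested on 3 cells.

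**Figure D3:**
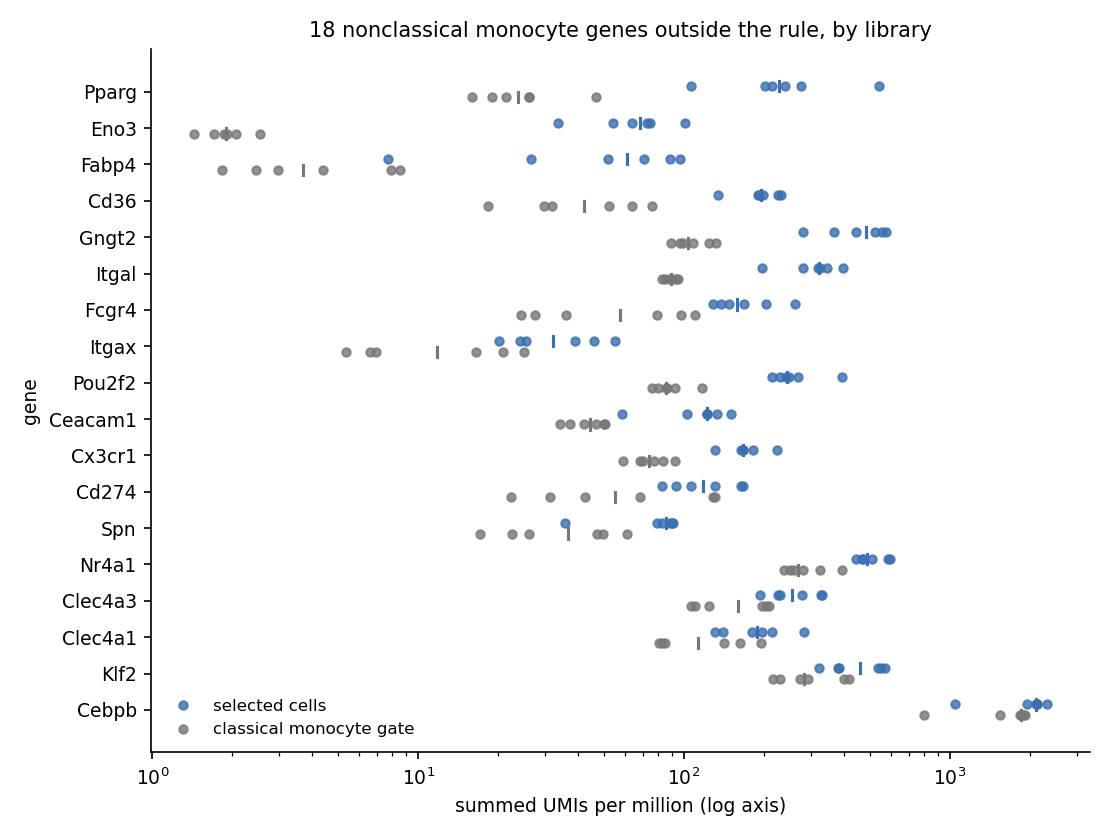
Level of the 18 nonclassical monocyte genes outside the rule (CPM, x axis on a log scale) by gene (y axis), with a point for each of the 6 libraries and a tick at their median, for all selected cells (blue) and for the classical monocyte gate (gray). The libraries of the selected cells lay above those of the gate without overlap for genes such as Pparg, Eno3, Gngt2, Itgal, Nr4a1, Cx3cr1 and Fcgr4. They overlapped for genes such as Itgax, Klf2, Cebpb and Fabp4.

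Receptors for immune complexes and dying cells differed from one another. Fcgr4, the receptor for IgG2 antibodies that nonclassical monocytes carry, stood at 128, 158 and 262 CPM against 24.3, 57.7 and 110 in the gate, 3.44-fold higher, or 5.35-fold without Ly6g. Cd36, a scavenger receptor, was 4.96-fold higher (8.39-fold), and Cd300ld 2.82-fold (4.48-fold). The receptors Fcgr1 (0.624-fold), Fcgr2b (0.920-fold) and Fcgr3 (0.893-fold) were not called. With Lilra5, 4 of the 16 listed genes were called higher in both comparisons. When cycling and precursor cells were left out on both sides, as described below, 2 of the 16 were called higher and 3 lower. Among lipid genes, Fabp4 (14.4-fold), which carries fatty acids and is a target of Pparg, and the cholesterol exporter Abcg1 (2.09-fold) were called higher with Cd36 and Pparg, 4 of 10, and without Ly6g 5 of 11 were higher and Fabp5 was lower (0.421-fold). Of 8 survival genes, Bcl2a1d (2.48-fold) and Cd274 (2.05-fold) were called higher, and without Ly6g also Bcl2 (2.77-fold). With cycling and precursor cells left out, Abcg1 (1.53-fold), Bcl2a1d (1.46-fold) and Cd274 (1.16-fold) were not called.

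Folds over the gate were ranked among genes outside the rule that were called higher. The 15 largest included Lilra5, an activating receptor (75.8-fold, interval 52.5 to 113), and Tgfbr3, a co-receptor for TGF-beta (40.9-fold). They also included Eno3, the muscle enolase (36.2-fold, interval 31.0 to 42.5), and Hes1, a repressor downstream of Notch (14.9-fold). Lilra5 stood at 10.6, 22.9 and 34.2 CPM over the libraries and at 0.217 to 0.383 CPM in the gate. Eno3 stood at 33.6, 68.2 and 101 CPM against 1.43 to 2.53. The other 11 were Cadm1, Slc12a2, Fabp4, Negr1, Setbp1, Pparg, Smpdl3b, Tmem26, Ikzf3, Zbtb16 and Slc40a1, at 5.51-fold to 17.4-fold. Cadm1 rested on 30 selected cells and stood at 144 CPM in library 6 and at most at 23.2 CPM elsewhere. Negr1 rested on 29 cells and stood at 96.7 CPM in its highest library and at 5.09 in its lowest. Of the 384 Slc40a1 UMIs, 104 were in 1 cell, and without the 5 cells described next that held both Vcam1 and Spic its fold over the gate was 2.86 in place of 5.51.

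Few genes outside the rule stood above all 5 gates. The limit of 2-fold over the highest gate was passed by 29 of 5479 genes (0.529%) in all selected cells, and by 81 of 5804 (1.40%) in those without Ly6g. Eno3 led the former with 18.3-fold over the Lyve1 macrophage gate, followed by Lilra5 (14.7-fold), Fabp4, a fatty acid binding protein (14.4-fold), and Pparg (11.4-fold), and Smpdl3b, a phosphodiesterase of the cell surface, was at 4.23-fold. For the selected cells without Ly6g, set against all cells of the gates, Eno3 was 29.4-fold, Lilra5 23.5-fold, Fabp4 19.5-fold and Pparg 17.3-fold over the highest gate, and S1pr5 passed the limit too, with each gate below 1 CPM. Some other genes with high folds came from very few cells. Of the 659 Dcn UMIs, 655 were in 1 cell, and of the 93 Comp UMIs, 92 were.

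Vcam1 and Spic were found together in 5 selected cells from 4 libraries, a set chosen after its values were seen. In these cells Vcam1 stood at 3163 CPM, Spic at 895, the iron exporter Slc40a1 at 1860, the phagocytic receptor Mertk at 1204 and Hmox1, the heme oxygenase, at 666. The other selected cells had 5.36, 3.49, 22.9, 10.7 and 115 CPM. Ace was at 0 in the 5 cells, while Pparg stood at 1512 CPM and Treml4 at 109. Spic and Vcam1 are known from macrophages that recycle iron, and 42 cells outside the rule had both genes.

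Among genes of classical monocytes, Ly6c2 and Ccr2 defined the gate, so their lower levels in the selected cells were in part set by it. Ly6c2 stood at 318, 601 and 982 CPM over the libraries of the selected cells and at 999, 1709 and 2078 in the gate, or 0.369 times its level (interval 0.359 to 0.379), and 0.176 times with the rule applied to cells thinned to 5000 UMIs. It was found in 68.3% of the selected cells and in 51.2% of those without Ly6g, against 5.81% of the B cell gate, which should lack it. In cells thinned to 5000 UMIs the latter shares were 45.0% and 4.22%. The neutrophil gate also held Ly6c2, at 896 CPM. Ly6c2 has a near-identical neighbor, Ly6c1, which makes its counts uncertain. Of 8 other genes of the list, 0 were called higher and 2 lower, F13a1 (0.291-fold), the coagulation factor subunit, and Fn1 (0.461-fold), fibronectin, and without Ly6g F13a1 alone (0.366-fold). Plac8 (0.962-fold) and Vcan (0.511-fold) were not called.

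Genes of the cell cycle and of primary granules were among those with the lowest folds, beside Phgdh (0.0353-fold), an enzyme of serine synthesis, the glutamate receptor subunit Gria3 (0.0845-fold) and the growth factor Nrg2 (0.131-fold). All 6 cell cycle genes were called lower in both comparisons, such as Stmn1 at 73.2 CPM against 387 (0.189-fold) and Mki67 at 59.2 against 178 (0.332-fold). Ctsg, Mpo, Prtn3 and Elane, the proteases and peroxidase of primary granules, stood at 5.30, 16.6, 45.7 and 61.0 CPM against 223, 335, 652 and 390. In the selected cells these levels rested largely on library 5, and without it they were 2.70, 2.70, 21.3 and 8.86 CPM. With cells left out on both sides that had any UMI of Mki67, Top2a, Mpo, Elane, Ctsg or Prtn3, 280 selected cells and 2135 of the 5201 gate cells were left, and 151 of 5888 genes were called higher (2.56%) and 228 lower (3.87%). The median depths were then 13488.5 and 16915 UMIs, against 16811.5 and 19676 before. Between these cells Stmn1 stood at 0.395 times the gate and Ly6c2 at 0.484 times (lower in 5 of 6 libraries), while Pparg was 10.2-fold, Spn 7.62-fold, Itgal 3.64-fold, Cx3cr1 2.34-fold and Nr4a1 2.00-fold higher, each in 6 of 6 libraries. Cells with Ly6g were kept in this comparison, and 4 of 5 neutrophil genes tested were called higher too (median log2 fold 1.51), such as Camp (3.53-fold) and S100a9 (2.46-fold).

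This choice of cells decided several calls. Of the 18 nonclassical monocyte genes 11 were again called higher and 0 lower, but Fcgr4 (1.94-fold) and Cd274 (1.16-fold) were no longer among them, and Nr4a1 and Spn were. Cd300ld (1.86-fold), Abcg1 (1.53-fold), Bcl2a1d (1.46-fold) and Tcf7l2 (2.31-fold, higher in 5 of 6 libraries) were not called either. In the other direction, 4 of 8 classical monocyte genes were called lower in place of 2, with Vcan (0.457-fold) and Ms4a4c (0.387-fold) added, and 3 of 16 genes of the Fc receptor and clearance list in place of 0, which were Fcgr1 (0.330-fold), the complement receptor C3ar1 (0.253-fold) and the scavenger receptor Msr1 (0.430-fold). Maf (0.438-fold), a transcription factor of macrophages, was called lower too.

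Of 13 inflammatory genes tested, 0 were called higher, and Ccl2 (0.355-fold) and Ccl7 (0.455-fold), the chemokines that draw Ccr2-bearing cells, were called lower. Without Ly6g the calls were Ccl7 (0.411-fold), Cxcl9 (0.454-fold) and Spp1 (0.220-fold), and Ccl2 was lower in 5 of 6 libraries. Il1b was at 1.42-fold and Tnf at 1.27-fold, and at 0.934-fold (higher in 3 of 6 libraries) and 1.03-fold with cycling and precursor cells left out on both sides. With that choice 5 of 13 were called lower, with Cxcl9 (0.311-fold), Cxcl10 (0.282-fold) and Spp1 (0.314-fold) added. None of 10 interferon-induced genes was called. Over all genes 3.21% were called higher and 6.04% lower, so 0 of 10 lies near that share. With cycling and precursor cells left out Isg15 (0.488-fold) and Bst2 (0.413-fold) were lower, 2 of 11, against 3.87% over all genes. None of 10 immediate-early and heat shock genes was called in all selected cells, again near the share over all genes. Egr1 (2.68-fold) and Dusp1 (2.09-fold) were called higher without Ly6g, against 3.94% over all genes. With cycling and precursor cells left out 0 of the 10 were called, with Egr1 at 1.53-fold and Dusp1 at 1.13-fold, while the heat shock genes Hspa1b (3.98-fold, against 1.63-fold in all cells) and Hspa1a (2.48-fold, against 1.05-fold) were each higher in 5 of 6 libraries. Nr4a1, which is itself an immediate-early gene, was called with the same choice of cells, and the part of a stress response in its level was not tested. Of the angiotensin system and its peptidases, no gene beside Ace stood at 20 CPM in all selected cells, and Dpp4 reached 27.5 CPM (2.19-fold) in those without Ly6g.

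For MHC class II, the direction depended on which cells were compared. None of the 3 genes H2-Aa, H2-Eb1 and Cd74 was called (0.976-fold, 0.958-fold and 1.04-fold). Without Ly6g they stood at 1.35-fold, 1.23-fold and 1.41-fold, higher in 4, 2 and 5 of 6 libraries, and 0 of 4 genes tested were called. With cycling and precursor cells left out on both sides, all 3 were called lower, at 0.460-fold, 0.456-fold and 0.492-fold. H2-Ab1, which helped define the dendritic cell gate, was at 0.944-fold in all cells, 1.23-fold without Ly6g and 0.433-fold with cycling and precursor cells left out, in the last case lower in 6 of 6 libraries. In the selected cells it stood at 1170 CPM before that choice and at 1091 after it. With such cells left out of the gate alone it was at 0.465-fold, so its fold moved mostly through the gate. Cells with Ly6g were kept in this choice. H2-Ab1 stood at 456, 618, 2994, 2268, 558 and 1022 CPM in the selected cells of libraries 1 to 6 and at 1905, 738, 2884, 2346, 755 and 663 CPM in the gate. Libraries 3 and 4 were high in both, and library 1 was high in the gate alone. In library 3, the selected cells also stood lowest for Pparg, Itgal, Spn and Eno3 and highest for Ccr2 (744 CPM, against 265 to 417 elsewhere).

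The PEPITEM pathway was measured through few genes. Ywhaz, which encodes the 14-3-3 zeta protein that PEPITEM is cut from, stood at 431 CPM against 380 in the gate (1.13-fold). The adiponectin receptors Adipor1 (205 against 119 CPM, 1.72-fold, higher in 6 of 6 libraries) and Adipor2 (117 against 98.2 CPM, 1.19-fold) were not called either. The other 5 genes of the list, Cdh15, Sphk1, Spns2, S1pr1 and S1pr4, were below 20 CPM in both populations.

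Macrophage markers stood at a similar summed level in the selected cells and in the classical monocyte gate. The 13 genes summed to 2511 CPM (1261 to 5473 by library) against 2455 (1188 to 4873), with Apoe the most abundant, and at least 1 of them was found in 96.1% of the selected cells and 93.2% of the gate (median depths 16811.5 and 19676 UMIs), against 17.2% of the neutrophil gate and 19.1% of the B cell gate (9767 and 5747 UMIs). None of 7 tested macrophage genes was called, and with cycling and precursor cells left out on both sides 6 of 8 were called lower, among them C1qa (0.286-fold) and Mrc1 (0.375-fold). In all cells C1qa stood at 203 CPM against 287, and Apoe at 1524 against 1230, higher in 4 of 6 libraries. With cycling and precursor cells left out C1qa stood at 173 CPM against 602, so its level changed more in the gate than in the selected cells. Markers of several other cell types summed to less. T cell markers summed to 11.5 CPM, eosinophil markers to 3.91 with Epx, Prg2, Prg3 and Il5ra at 0, erythroid markers to 0.806, fibroblast markers to 7.83, and mast cell and basophil markers to 17.6. Each of these sums moved by over 1.5 times with 1 library. T cell markers summed to 6.45 CPM without library 1, eosinophil markers to 1.64 and fibroblast markers to 0.893 without library 2, erythroid markers to 0.523 without library 3, and mast cell and basophil markers, led by Mcpt4 in library 4, to 3.61 without it. B cell markers summed to 127 CPM, of which Ighm made 105, against 359 in the gate, and dendritic cell markers to 47.2. Over the libraries the B cell sums were 83.8 to 175 CPM with a median of 123, and in the gate 125 to 769 CPM with a median of 173. Platelet markers summed to 62.9 CPM, of which Pf4 made 60.7.

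The levels of several other genes differed with the number of rule genes in a cell. Cells with Csf1r, no Lyve1 and no Ly6g were grouped by that number, which gave 5684, 1875, 393, 101, 82 and 68 cells with 0 to 5 genes. Pparg stood at 26.5 CPM with 0 genes and at 863 with 5 (Poisson interval 798 to 931), Itgal at 70.5 and 698, Fcgr4 at 56.2 and 392, Cx3cr1 at 82.3 and 324, Spn at 41.2 and 257, and Nr4a1 at 276 and 983. In the other direction, Ly6c2 stood at 1308 and 336 CPM, H2-Ab1 at 1665 and 599, C1qa at 518 and 35.0, Vcan at 265 and 93.4, and Ccr2 at 507 and 254. The order was not even, as Ccr2 was highest at 3 genes (717 CPM), H2-Ab1 and Vcan at 2 (2289 and 462 CPM) and Ly6c2 at 1 (1471 CPM), and Spn was lowest at 2 (32.2 CPM). Nr4a1 stood at 311 CPM with 1 gene and at 282 with 2. Median depth was 16664.5 UMIs with 0 genes and 7982.5 with 5. Cells were also thinned to 5000 UMIs before their rule genes, Csf1r, Lyve1 and Ly6g were read. A cell that lost its Ly6g UMIs by thinning thus counted as without Ly6g. The 40 cells with 5 genes then had Pparg at 990 CPM, Nr4a1 at 1165, Ly6c2 at 45.0 and Ccr2 at 70.0. In thinned cells with 0 genes these stood at 30.4, 300.0, 1062 and 572 CPM. The neutrophil gene S100a8 stood at 4486 CPM with 0 genes, 9453 with 4 and 8296 with 5. In the cells grouped after thinning, which are not the same set, it stood at 8335 CPM with 0 genes and at 1195 with 5.

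**Figure D4:**
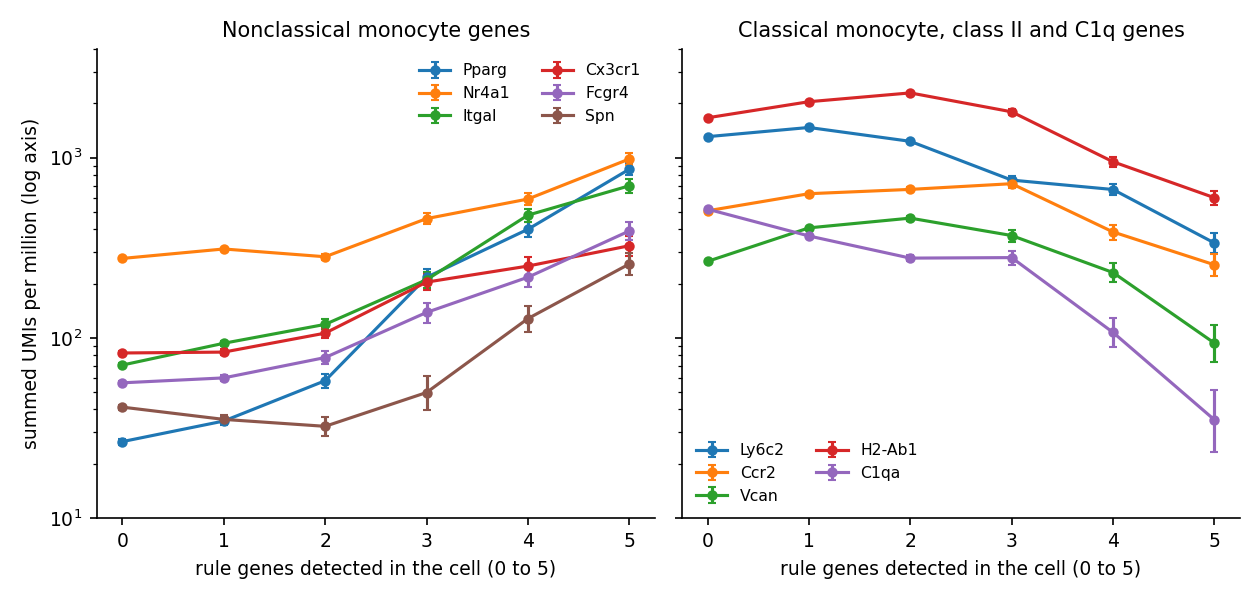
Level (CPM, y axis on a log scale) of 6 nonclassical monocyte genes (left) and of 5 genes of classical monocytes, MHC class II and C1q (right) by the number of rule genes in the cell (x axis), in cells with Csf1r and without Lyve1 and Ly6g, where bars are 95% Poisson intervals. Pparg was at 26.5 CPM with 0 genes and at 863 with 5, and Ly6c2 at 1308 and 336.

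To ask how alike the selected cells were, each was set against the profiles of the selected cells and of the 5 gates, built from the other 5 libraries over 8080 genes that neither the rule nor a gate used. The profile of the selected cells was the nearest by Pearson correlation for 258 of 410 (62.9%, interval 58.2% to 67.5%), the classical monocyte gate for 85 (20.7%) and the neutrophil gate for 50 (12.2%). Of the cells with 5 rule genes 85.9% were nearest to the profile of the selected cells, of those with 4 65.2%, and of those with 3 47.6%. Among the 258 cells without Ly6g, the shares against the same profiles were 92.6%, 72.1% and 37.5%, and the cells with 3 genes were nearest to the classical monocyte gate in 54.8%. The profile of the selected cells holds the RNA of those with Ly6g, and with profiles built from cells without Ly6g (other than the neutrophil gate) the shares of these cells were 97.1%, 86.0% and 66.3%, or 81.0% for all 258. The cells with 3 genes were then nearest to the classical monocyte gate in 28.8%, so that the majority among them turned with the profiles. Of the 152 cells with Ly6g, 30.9% were nearest to the neutrophil gate, against 1.16% of those without. By library the share was between 50.8% in library 4 and 79.2% in library 2. Cells with exactly 2 rule genes and Csf1r were nearest to the profile of the selected cells in 31.1%, the cells of the classical monocyte gate in 15.9% and those of the neutrophil gate in 0.981%. By these measures the cells with all 5 genes were the most alike to the profile of the selected cells, and those with 3 the least. The rule chose the cells that made this profile, so the shares describe likeness to the selection. They do not test the label of nonclassical monocytes.

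**Figure D5:**
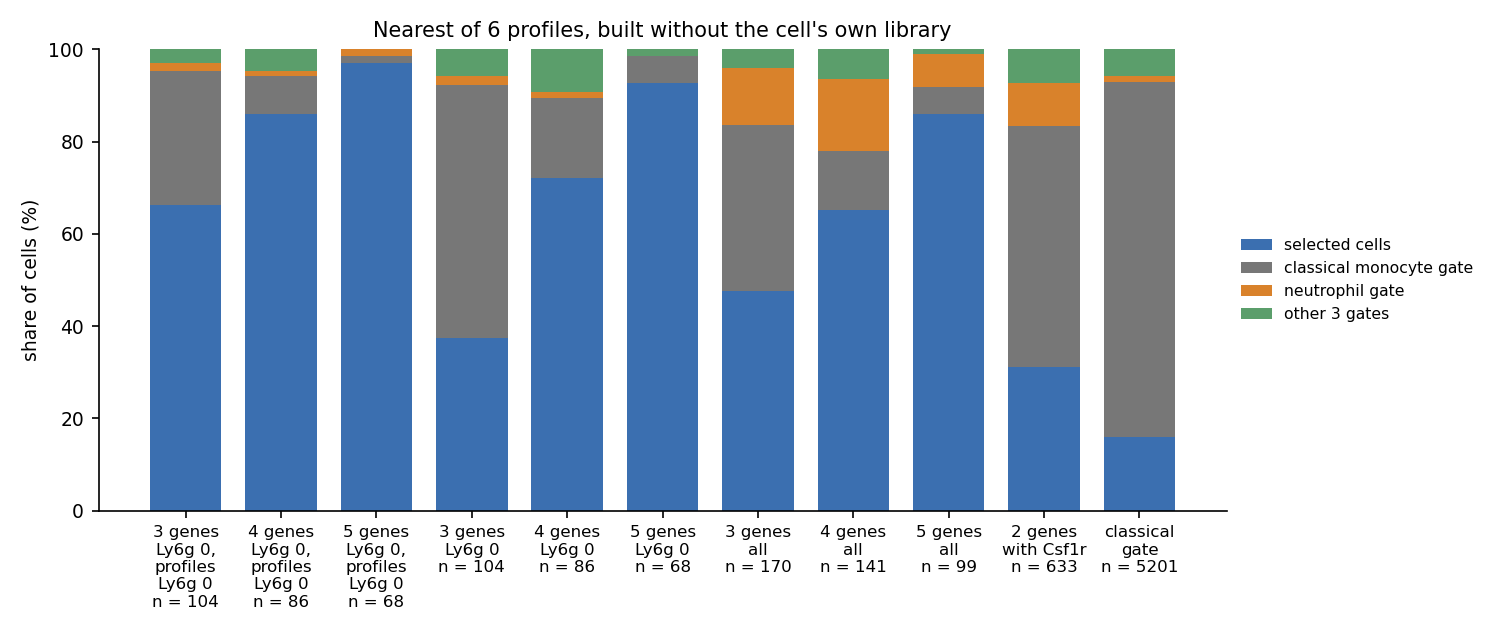
Share of cells (y axis, percent) whose nearest profile was that of the selected cells, of the classical monocyte or neutrophil gate, or of any of the other 3 gates, for selected cells with 3, 4 or 5 rule genes (without Ly6g against profiles without Ly6g, without Ly6g against profiles of all cells, then all), for cells with exactly 2 rule genes and Csf1r, and for the classical monocyte gate. The share nearest to the selected cells was 66.3%, 86.0% and 97.1% with 3, 4 and 5 genes when cells and profiles had no Ly6g, 37.5%, 72.1% and 92.6% when the cells alone had none, and 15.9% in the classical monocyte gate.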

How the data were processed

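Droplet single-cell RNA sequencing (3′ chemistry) of sorted CD45+ synovial cells was used. According to the paper's methods and the submitters' processing notes, the authors aligned reads to mm10 with Cell Ranger 7, took out free RNA with SoupX and doublets with DoubletFinder, and filtered cells with Seurat. They deposited whole UMI counts for 20394 genes and 32953 cells in 1 table that pools all samples, and 1724738 of its 102584772 entries are written as 0. Of these cells, 276 (6 of them selected) carried a barcode that occurred in more than 1 library.

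No further cell filter or doublet caller was applied. Summed counts were scaled to CPM, and levels below 3 UMIs were set to 3 UMIs in folds. The genes named are those of the fixed lists, the 15 highest and lowest folds among called genes and the 12 highest folds over the gates. Genes of the rule were left out of these rankings. Wilson intervals were used for shares and exact Poisson intervals for counts. Profiles were log2(CPM + 10). Before use, the code for the fold calls and for the nearest profile was tested on simulated data with known folds and known populations. Python 3.11.15, numpy 2.4.6, scipy 1.17.1 and matplotlib 3.10.9 were used. The rule, gates and lists were chosen with earlier results of these data known. Of what was planned, 1 further gate and 2 genes of the lists are not reported here, and cells that passed that gate were kept out of the other gates. The planned comparison of PBS and PEPITEM was not run.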

Additional observations from a re-analysis of the deposited data

How the results depend on the processing

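The share of selected cells, 1.24%, was 4.04% with 2 of 5 genes required, 0.728% with 4 and 0.300% with 5, 0.606% in cells thinned to 5000 UMIs, 0.668% without cells that had UMIs of 9 genes of other lineages and 0.783% without Ly6g. The genes called higher, 201, were 439 at 1.5-fold and 76 at 3-fold. Those called lower, 378, were 1124 at 1.5-fold, 118 at 3-fold, 173 at a minimum of 50 CPM, 251 without selected cells that had UMIs of other lineages, 170 against gate cells without cycling and precursor RNA and 228 with such cells left out on both sides. Filtering the gate alone put Stmn1 at 6.53-fold in place of 0.189-fold, which that one-sided filter sets, and with both sides filtered it was at 0.395-fold. The share nearest to the profile of the selected cells, 62.9%, was 56.6% with genes of 100 CPM or more, 57.7% in cells thinned to 5000 UMIs and 81.0% with Ly6g at 0 in cells and profiles, where the majority of the cells with 3 genes turned to the selected cells (66.3%, against 37.5% with profiles of all cells). The level of Ly6c2 relative to the gate, 0.369, was 0.348 with 4 of 5 genes, 0.325 without Ly6g and 0.176 with the rule applied to thinned cells, and that of Nr4a1, 1.80, was 2.17, 2.20 and 2.70. Leaving out single libraries gave a share of selected cells of 1.21% to 1.28%, 159 to 260 genes called higher and 299 to 528 lower, a nearest share of 59.2% to 65.6%, Ly6c2 at 0.339 to 0.395 and Nr4a1 at 1.73 to 1.86. The alternatives gave 82 values of these results, of which 29 moved out of the interval or beyond 1.5 times the count and 53 did not, and Ly6c2 and Nr4a1 kept their direction. The cause was not tested where the setting itself does not show it. The settings without Ly6g, without cycling and precursor RNA (in the gate alone or on both sides), and the left-out libraries and thinning for Ly6c2 and Nr4a1 were chosen after seeing the data. Selected and gate cells were compared within each library through the call in 6 of 6 libraries. No paired analysis was possible between PBS and PEPITEM because the barcode libraries carry no link to the numbered samples.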
